A study of Drosophila melanogaster with 3 samples.

Results

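Purifications of the exon junction complex (EJC) that ended with the same antibody against eIF4AIII were set side by side. The tag captured first was on Btz in one (Btz-first) and on Y14 in the other (Y14-first). The material was their deposited peak lists, 36393 Btz-first peaks and 16094 Y14-first peaks, which together make 52487 of the 87432 peaks of the series. Both lists were taken whole, and a peak was called matched when it shared at least 1 bp with a peak of the other list and had the same strand. The remaining 34945 peaks belong to a purification by tagged eIF4AIII and then by antibody to Y14 (eIF4AIII-first), which served as a further readout.

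The cells of all 3 purifications were S2, an established line from Drosophila melanogaster. Copper sulfate induced the tagged protein, which the cells made beside their own EJC proteins, and the sources used here do not give whether a line was a single clone. After 72 h of growth the cells received cycloheximide, a blocker of translation, at 100 µg/ml for 2 h. Complexes were pulled down by the tag with Flag antibody, bound to oligo(dT), cut with micrococcal nuclease (MNase) for 15 min and precipitated with the second antibody. MNase was used at 0.5 units for Btz-first and eIF4AIII-first, and at 0.3 units for Y14-first. No control purification was analysed here. Each purification had 1 library, so the tagged protein, the nuclease dose and the library cannot be told apart, and all differences below are descriptions without a p-value.

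The EJC is deposited on mRNA by the spliceosome a short way upstream of exon-exon junctions. eIF4AIII is the RNA-clamping DEAD-box ATPase at its centre, and Y14 with its partner Mago locks that clamp in the closed state. Btz (Barentsz, CASC3 or MLN51 in humans) binds eIF4AIII as well, and in fly oocytes it acts in the transport of oskar mRNA. Translation strips the complex from the mRNA. Capturing Btz first or Y14 first, with eIF4AIII second in both, asks whether complexes that hold Btz and complexes that hold Y14 sit at the same places.

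Each peak carries the authors' score. Score times width was whole (tolerance 0.001) in 100% of the peaks, so it was read as the mean number of reads over a base and is called depth. Depth ran from 0.794 to 68646 with a median of 95.3 in Btz-first, and from 0.906 to 49594 with a median of 34 in Y14-first. Depth carries no scaling for library size, and total reads were not used here, so it was ranked within a list only. In both lists the smallest gap between neighbouring peaks of a strand was 25 nt, so stretches closer than that stand as 1 peak. The names of the sequences are those of release 5 of the fly genome while the annotation at hand is release 6, so no peak was assigned to a gene, exon or UTR. Positions are 1-based release 5 coordinates by sequence names. Intervals are exact (Clopper-Pearson) 95% binomial intervals that treat peaks as independent, and they cover counting error only.

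Of the Btz-first peaks, 7031 (19.3%, interval 18.9 to 19.7) overlapped a Y14-first peak. Conversely, 7203 Y14-first peaks (44.8%, 43.99 to 45.5) had a Btz-first counterpart. Most Btz-first peaks thus had no counterpart, and just under 45% of the Y14-first peaks did. On the opposite strand the same shares were 0.448% and 1.04%, from 163 Btz-first and 167 Y14-first peaks. The shares depend on list length and on the overlap asked for. With the 16094 deepest Btz-first peaks alone, 23.3% of them were matched and so were 24.8% of the Y14-first peaks. With an overlap of at least 50% of both peaks, 9.97% and 22.5% were matched.

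Distances from unmatched peaks to the other list were as follows, with no background set beside them. The 29362 unmatched Btz-first peaks had a median distance of 678 nt to the nearest Y14-first peak of their strand, and 14.1% lay within 100 nt. The 8891 unmatched Y14-first peaks had a median distance of 289 nt to a Btz-first peak, and 27.7% lay within 100 nt. Within 1000 nt of the other list were 58.1% of the unmatched Btz-first peaks and 71.1% of the unmatched Y14-first peaks.

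The eIF4AIII-first library, which played no part in the matching, held matched peaks more often than unmatched ones. Among Btz-first peaks, 60.4% of the matched (59.3 to 61.6) and 32.5% of the unmatched (31.95 to 33.0) overlapped an eIF4AIII-first peak. Among Y14-first peaks the values were 55.8% of the matched (54.6 to 56.9) and 18.4% of the unmatched (17.6 to 19.2). Width moves with these shares, since matched peaks were wider. Within the class of 50 to 74 nt they were 53.96% of the matched and 27.7% of the unmatched Btz-first peaks, and 51.1% of the matched and 19.4% of the unmatched Y14-first peaks. The order was the same in each of the 8 width classes of both lists. Matched peaks were also deeper. Median depth was 164 for matched and 82.5 for unmatched Btz-first peaks, and 58.9 and 21 for Y14-first peaks. The part of depth in these shares was not tested.

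Matching was close to a pairing of single peaks. There were 7413 overlaps, and in 6340 of them neither peak touched any other peak of the opposite list. These exclusive pairs held 90.2% of the matched Btz-first peaks and 88.0% of the matched Y14-first peaks, with a median overlap of 39 bp. In the rest, 329 Btz-first peaks (median width 192 nt) overlapped 2 or more Y14-first peaks, and 201 Y14-first peaks (median width 142 nt) overlapped 2 or more Btz-first peaks.

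The ends of paired peaks coincided to the base far more often than they missed by 1 base. With upstream and downstream read from the strand column, the upstream end was identical in 1245 exclusive pairs (19.6%, 18.7 to 20.6) and the downstream end in 1288 (20.3%, 19.3 to 21.3). By contrast, the upstream end of the Btz-first peak reached exactly 1 nt further out in 216 pairs, and that of the Y14-first peak in 187. Downstream the numbers were 158 pairs for Btz-first and 169 for Y14-first. At least 1 end was identical in 2257 pairs (35.6%, 34.4 to 36.8) and both ends in 276 (4.35%, 3.86 to 4.88). The share with both ends identical was 2.27% among the deepest peaks at equal list length, and 7.61% with an overlap of 50% of both peaks.

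**Figure D1:**
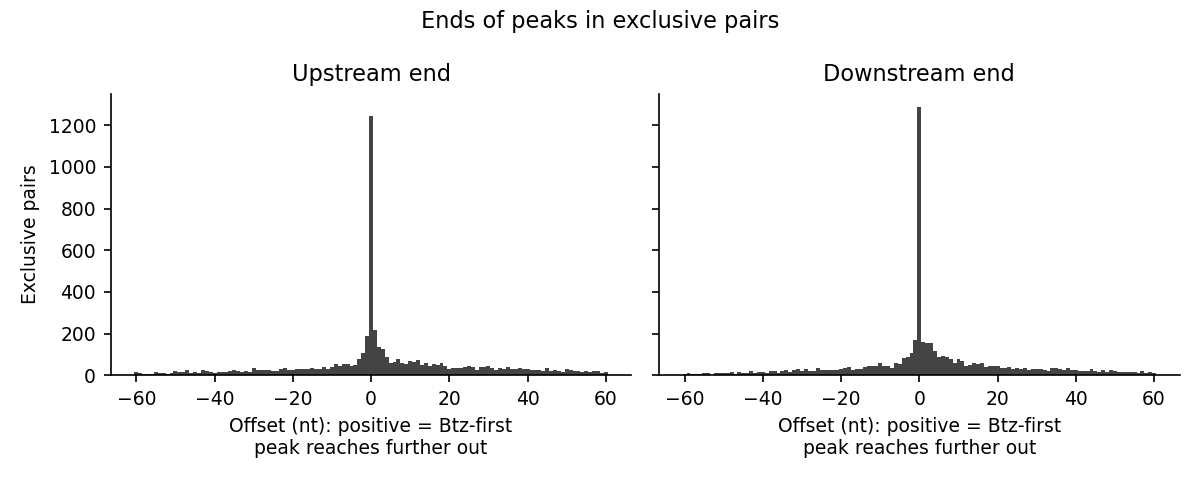
Offset between the ends of the 2 peaks of each exclusive pair, in nt (x), against the number of pairs (y), for upstream ends (left) and downstream ends (right); offsets beyond 60 nt are not drawn. The bar at 0 holds 1245 pairs upstream and 1288 downstream, and both sides extend further to the right, where the Btz-first peak is longer.

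Where ends differed, the Btz-first peak was usually the longer one, on both sides alike. Upstream it reached further out in 50.2% of the pairs and the Y14-first peak in 30.2%. Downstream the shares were 49.4% for Btz-first and 30.3% for Y14-first. Neither side stood apart: the middle 50% of offsets ran from -3 to 24 nt upstream and from -3 to 20 nt downstream, with positive values for a longer Btz-first peak. In 42.3% of the pairs the Y14-first peak lay inside a longer Btz-first peak, and in 17.3% the Btz-first peak lay inside a longer Y14-first peak. Staggered pairs were balanced, with the Btz-first peak shifted upstream in 17.9% and downstream in 18.1%. In 969 pairs the upstream end alone was identical, and there the Btz-first peak was longer downstream in 66.0% with a median offset of 6 nt. In 1012 pairs the downstream end alone was identical, and the Btz-first peak was longer upstream in 69.6% with a median offset of 10 nt.

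Ends common to both lists recurred in the eIF4AIII-first list more often than ends that differed, though most did not recur. Of the identical upstream ends, 32.0% (29.5 to 34.7) were the upstream end of an eIF4AIII-first peak, and of the identical downstream ends 35.6% (33.0 to 38.3) were a downstream end there. Where upstream ends differed, the end of the Btz-first peak recurred in eIF4AIII-first in 6.89% of pairs and that of the Y14-first peak in 3.55%. Where downstream ends differed, the values were 8.63% for Btz-first and 2.79% for Y14-first. In the same pairs the Btz-first border was the more frequent match to the eIF4AIII-first library, which shares the nuclease dose of Btz-first. The part of the dose in this was not tested.

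Identical ends also stood next to gaps of 50 to 75 nt, the length of many short fly introns. In Btz-first, 32.8% of the identical upstream ends and 35.8% of the identical downstream ends faced the next peak of the list across such a gap, against 13.2% and 16.35% of the ends that differed. In Y14-first the shares were 29.6% upstream and 28.6% downstream for identical ends, and 4.16% and 4.45% for ends that differed. Whether a gap is an intron was not determined, since the annotation could not be placed on these coordinates.

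Paired peaks were wider in Btz-first, the library with the larger nuclease dose. Over the 6340 exclusive pairs the median width was 66 nt in Btz-first (middle 50%, 44 to 98 nt) and 52 nt in Y14-first (34 to 72 nt). The median of the differences within pairs was 10 nt (interval 8 to 11), with the Btz-first peak wider in 3979 pairs, the Y14-first peak wider in 2016 and 345 equal. The size of this difference rests on the choice of peaks. It was 2 nt where each peak had to cover at least 50% of the other, and 18 nt among the deepest peaks at equal list length. Widths were linked only loosely between the lists, with a rank correlation of 0.38 across pairs, given as a description.

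Matched peaks were wider than unmatched ones in both lists. The median was 68 nt for matched and 51 nt for unmatched Btz-first peaks, and 53 nt for matched and 44 nt for unmatched Y14-first peaks. An overlap of 1 bp is easier to meet for a wide peak, and from 150 nt up 55.6% of the Btz-first peaks and 92.7% of the Y14-first peaks were matched. The shares were not steady at small widths. Of the Y14-first peaks under 15 nt, 51.7% (47.9 to 55.4) were matched, against 29.3% (27.4 to 31.3) of those of 15 to 24 nt. Of the Btz-first peaks the same classes had 9.53% and 16.8%.

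These smallest Y14-first peaks mostly shared a border with a wider Btz-first peak. Of 336 in exclusive pairs, 319 (94.9%, 92.0 to 97.0) had at least 1 end identical to the Btz-first peak, and 311 lay wholly within it. The identical end was the upstream one alone in 187, the downstream one alone in 95 and both in 37. The partners had a median width of 35 nt. Of 193 Btz-first peaks under 15 nt, 77.2% (70.6 to 82.9) had an identical end. Here 92 shared the upstream end alone, 20 the downstream end alone and 37 both. In both lists, therefore, peaks under 15 nt shared the upstream border more often than the downstream one.

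**Figure D2:**
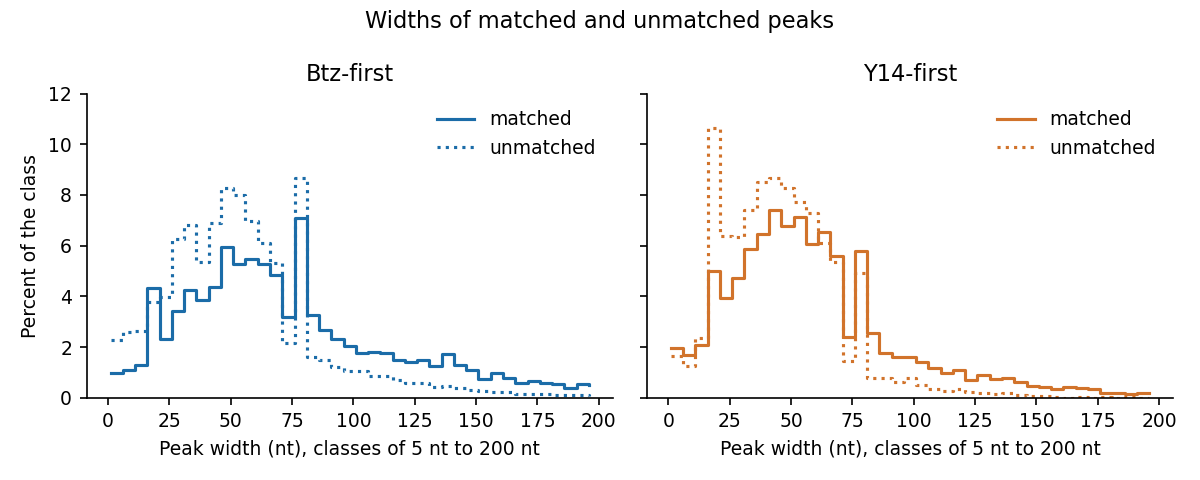
Peak width in classes of 5 nt (x, to 200 nt) against the percent of the matched (solid) or unmatched (dotted) peaks of a list (y), Btz-first left and Y14-first right. In both lists the solid line lies above the dotted one at large widths, and the class that holds 76 nt stands out.

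Pairs with both ends identical held many narrow, shallow peaks and some of the deepest. Of the 276, 127 (46.0%, 40.02 to 52.1) were 15 to 21 nt wide, with low median depths of 9.67 in Btz-first and 13.9 in Y14-first. The 112 pairs of 22 nt or more had median depths of 313 in Btz-first and 84.2 in Y14-first, and the widest measured 241 nt. The other 37 were under 15 nt. Depth ranks followed each other more closely in pairs with both ends identical, with a rank correlation of 0.59. It was 0.24 in pairs with 1 identical end and 0.11 with none. The 0.59 pools narrow, shallow pairs with wider, deeper ones. Within the pairs of 15 to 21 nt the correlation was 0.51, and within those of 22 nt or more 0.43.

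The 5 identical pairs that were deepest in both lists lay on X, Uextra, 3R and 3L. On X at 657974 to 658121, minus strand, a peak of 148 nt ranked 8 by depth in Btz-first and 60 in Y14-first. Here the eIF4AIII-first peak ended at the same base, 658121, but began at 658049 and ranked only 11398. On the unplaced sequence Uextra at 15240854 to 15240932, plus strand, a peak of 79 nt ranked 14 in Btz-first and 66 in Y14-first, with no eIF4AIII-first peak. On 3R, minus strand, the peak at 16584704 to 16584739 ranked 110 in Btz-first and 80 in Y14-first, and the one at 1424145 to 1424290 ranked 191 and 77 in the same order. All 4 of these were thus among the 200 deepest peaks of either list. The fifth, on 3L at 16646869 to 16647109, plus strand, was the pair of 241 nt and ranked 776 in Btz-first and 67 in Y14-first.

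Across all exclusive pairs, depth in one list said little about depth in the other. The rank correlation was 0.18 over 6340 pairs, which share no library but do share position, and it was 0.32 with an overlap of 50% of both peaks and 0.13 among the deepest peaks. Divided into 4 equal classes by depth, 1945 pairs (30.7%) fell into the same class in both lists. Of the 1585 pairs in the top class of Btz-first, 558 (35.2%) were also in the top class of Y14-first and 331 (20.9%) in its lowest. Of the top class of Y14-first, 244 (15.4%) were in the lowest class of Btz-first. By the width of the narrower peak of a pair, the correlation was 0.15 under 25 nt (1167 pairs), 0.01 at 25 to 44 nt, 0.03 at 45 to 59 nt and 0.29 from 60 nt up. It was 0.39 from 100 nt (365 pairs), so it was highest among wide pairs and lowest at middle widths. Among the peaks of these exclusive pairs, depth also moved with width (0.32 in Btz-first and 0.34 in Y14-first). The part of width was not tested.

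**Figure D3:**
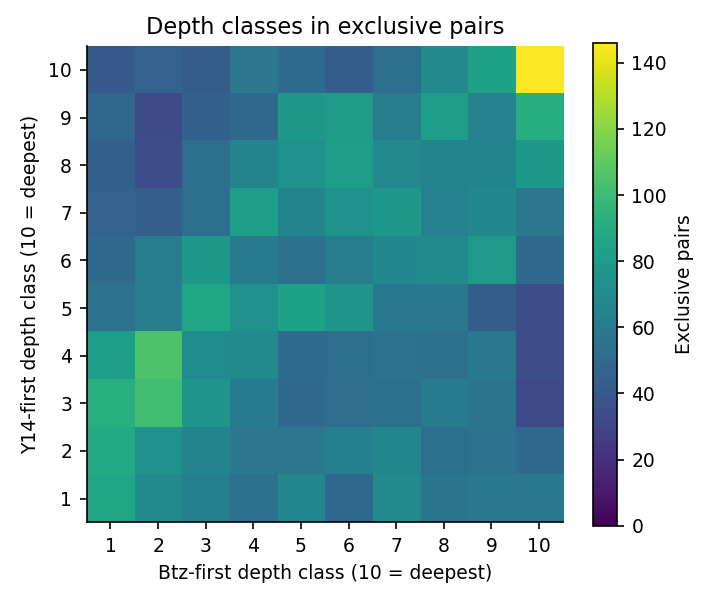
Exclusive pairs divided into 10 equal classes by depth within Btz-first (x) and within Y14-first (y), 10 being the deepest; the colour gives the number of pairs. The fullest cell, with 146 pairs, is the deepest class of both lists, and every cell holds at least 32.

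Some pairs were near the top of one list and near the bottom of the other. On 3R at 227118 to 227207, plus strand, the Btz-first peak had a depth of 1849 (rank 244), while the Y14-first peak had 2.18 (rank 16034). Both ended at 227207, as did the eIF4AIII-first peak. On 2L at 8260909 to 8260986, minus strand, depth was 3398 in Btz-first (rank 71) and 2.87 in Y14-first (rank 15906), with a common downstream end at 8260909. The third, on 3R at 18239083 to 18239123, plus strand, had 1919 in Btz-first and 2.72 in Y14-first, and a common upstream end in all 3 libraries. These pairs, the most unequal towards Btz-first, all kept 1 border to the base.

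In the most unequal pairs of the other direction no border was the same to the base. On 3L at 16055903 to 16055952, plus strand, the Btz-first peak had a depth of 2.4 (rank 36264 of 36393), and the Y14-first peak at 16055896 to 16055956 had 1641 (rank 232). On 3L at 21513523 to 21513565, plus strand, depth was 3.84 in Btz-first (rank 35600) and 1529 in Y14-first (rank 347), with no eIF4AIII-first peak. On 2R at 20073087 to 20073153, plus strand, it was 1.81 in Btz-first and 1204 in Y14-first. In each case the Y14-first peak reached further out on both sides. With the 3 most unequal pairs in each direction, this is an illustration only.

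Matched peaks were deeper within their lists, but among peaks of 50 to 74 nt matching did not climb with depth. Median depth was 164 for matched and 82.5 for unmatched Btz-first peaks, and 58.9 for matched and 21 for unmatched Y14-first peaks. From the lowest to the highest of 4 classes of depth, 14.03%, 17.6%, 20.3% and 25.3% of the Btz-first peaks were matched, and 32.5%, 43.7%, 50.2% and 52.6% of the Y14-first peaks. Among peaks of 50 to 74 nt the shares were 17.3%, 15.2%, 15.4% and 18.3% in Btz-first, and 49.01%, 45.1%, 40.9% and 42.5% in Y14-first. At that width the deepest class was matched about as often as the lowest in Btz-first and less often in Y14-first. At the very top matching was common, with 80 of the 100 deepest Btz-first peaks (70.8 to 87.3%) and 87 of the 100 deepest Y14-first peaks (78.8 to 92.9%).

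The deepest unmatched peaks in Btz-first were at 3L 13851806 to 13852018, plus strand (rank 17), 322 nt from the nearest Y14-first peak, at 3L 3119043 to 3119101, minus strand (rank 29), 65 nt away, and at 2R 2632252 to 2632282, plus strand (rank 30), 1131 nt away. All 3 overlapped an eIF4AIII-first peak. The deepest unmatched Y14-first peaks were at 3L 1532507 to 1532574, minus strand (rank 29), 79 nt from a Btz-first peak, at 3L 7504805 to 7504866, plus strand (rank 62), 69 nt away, and at 2R 7745415 to 7745483, plus strand (rank 71), 320 nt away. None of these overlapped an eIF4AIII-first peak. With 3 peaks a list this is an illustration only.

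The widest peaks show how 1 stretch in a list can be several in the other. On 2R at 7781060 to 7783017, plus strand, 1 Btz-first peak of 1958 nt spanned 8 Y14-first peaks of 38 to 312 nt and overlapped 13 eIF4AIII-first peaks. On 2L the Btz-first peaks at 21678188 to 21679402, minus strand, and at 5034013 to 5034981, plus strand, spanned 5 Y14-first peaks each. Next to this last one, the Btz-first peak at 5032500 to 5033950 held 2 Y14-first peaks, among them the widest of that list at 1012 nt, and the outer borders were identical in both lists. The widest Btz-first peak, 2283 nt on 3R at 23526369 to 23528651, plus strand, met 1 Y14-first peak of only 40 nt and depth 4.8. In the other direction, the most Btz-first peaks that met 1 Y14-first peak were 4, at the Y14-first peak of 334 nt on 3R at 4897150 to 4897483, minus strand. Of these, 2 lay within it, and the outer ones overlapped it by 10 bp each.

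Of 6206 windows of 10 kb with a peak of either list, 4093 held peaks of both, 1322 of Btz-first alone and 791 of Y14-first alone. The windows of 1 list alone held 9.51% of the Btz-first peaks and 5.88% of the Y14-first peaks. The rank correlation of the counts over all windows was 0.62, given as a description. Gene density and expression, which both lists may share within a window, were not measured. The fullest windows had 42 Btz-first and 47 Y14-first peaks.

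A window was called rich in a list when its share of that list, after adding 0.5 to each count, was at least 4-fold its share of the other and it held at least 5 of the list's peaks. Rich in Btz-first were 233 windows, 3.75% of those compared, and rich in Y14-first 36, or 0.580%. These counts depend on list length and on the constant. With equal list lengths the counts were 126 and 74, and with a constant of 1 they were 52 and 30. The Btz-first windows held 5.36% of the Btz-first peaks, 0.168% of the Y14-first peaks and 3.49% of the eIF4AIII-first peaks. The rule itself selects for few Y14-first peaks: windows with up to 13 Btz-first peaks met it only with 0 Y14-first peaks. A total of 207 of the Btz-first windows had no Y14-first peak, which follows largely from the rule. In the longer eIF4AIII-first list, which the rule did not use, 15 of them had no peak. The share of all windows without an eIF4AIII-first peak was not computed. The Y14-first windows held 0.291% of the Btz-first peaks, 1.91% of the Y14-first peaks and 1.07% of the eIF4AIII-first peaks. Of these 36 windows, 1 had no eIF4AIII-first peak. The third library had peaks in most windows of both kinds, with no share over all windows to set beside this.

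Depth in the rich windows was ordinary for the lists. Btz-first peaks had a median depth of 109 in its rich windows, against 95.3 in the whole list, and Y14-first peaks 41 in its own, against 34. All peaks of the list lay on 1 strand in 54.1% of the Btz-first windows and in 75% of the Y14-first windows. Among all windows with at least 5 peaks of the list this was so in 47.0% for Btz-first and 53.4% for Y14-first. The rich windows had medians of 7 (Btz-first) and 6 (Y14-first) peaks of the list. The comparison was not matched for this number, and its part was not tested. Runs of neighbouring rich windows numbered 12 for Btz-first, at most 2 windows long, and 4 for Y14-first, at most 3 long.

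**Figure D4:**
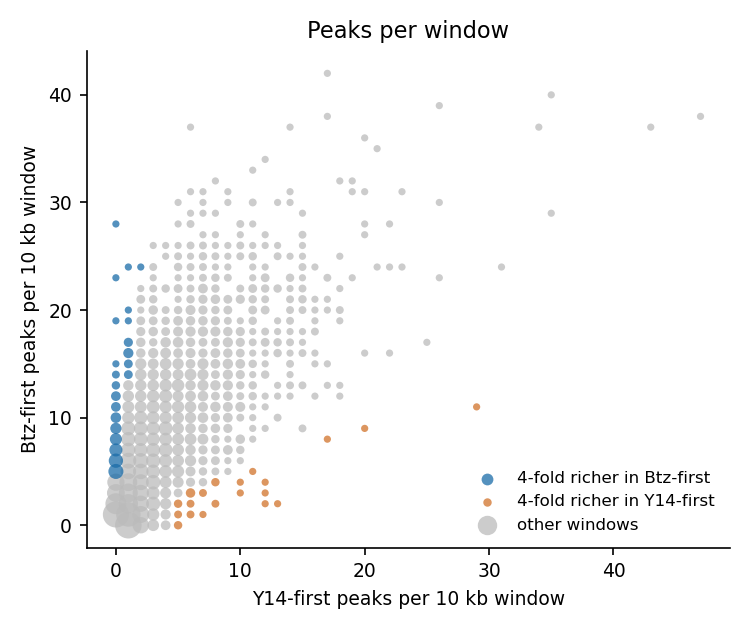
Y14-first peaks (x) and Btz-first peaks (y) in each window of 10 kb; the area of a point grows with the number of windows at that pair of counts. Windows at least 4-fold richer in Btz-first (233, blue) lie along the left edge, and those richer in Y14-first (36, orange) lie low, at 5 to 29 Y14-first peaks.

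The 5 windows of largest excess in Btz-first had no Y14-first peak. They began at 2L 14320001 with 28 Btz-first peaks, at chromosome 4 550001 with 23, at 3L 20770001 with 19, at 2R 3840001 with 15 and at 2L 16310001 with 14. Another window tied with the last and was left out by position. The first pair was on the plus strand throughout and nearly empty in eIF4AIII-first as well, with 3 and 1 peaks, whereas the other windows held 6, 6 and 9. Depth within a window varied widely. At 2L 14320001 it ran from 1.43 to 850 with a median of 31.0, and at 2L 16310001 from 4 to 667 with a median of 168.

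Windows of largest excess in Y14-first held fewer peaks. Those beginning at 2L 20960001, 3R 7900001 and 3R 22270001 had 0 Btz-first and 5 Y14-first peaks each, all on 1 strand. At 2L 5190001 there were 2 Btz-first and 13 Y14-first peaks, and at 2R 9780001 there were 2 and 12, again with all Y14-first peaks on 1 strand. A window with 1 Btz-first and 7 Y14-first peaks tied with the last and was left out for its fewer peaks. The eIF4AIII-first library had 2, 5, 3, 7 and 14 peaks in these windows, in the order given.

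Matching differed between chromosomes in the same order in both lists at the extremes. Among the arms and chromosome 4, it was lowest on X, with 15.8% of the Btz-first peaks (14.9 to 16.8) and 37.3% of the Y14-first peaks (35.4 to 39.3). It was highest on the small chromosome 4, with 24.4% (20.97 to 28.0) and 62.6% (56.0 to 68.9) in the same order. The large autosomal arms lay between, at 18.0 to 20.7% of the Btz-first peaks and 44.1 to 47.6% of the Y14-first peaks. X accordingly held 12.2% of the matched and 15.5% of the unmatched Btz-first peaks, and 12.2% of the matched and 16.5% of the unmatched Y14-first peaks.

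Peak density moved with these extremes. Over the stretch that holds peaks, X had the fewest, 242 Btz-first and 105 Y14-first peaks per Mb, and chromosome 4 the most, with 473 and 183. The 4 large autosomal arms had 277 to 373 and 123 to 159. The part of density in the matching was not tested. Width on X was close to that of the whole lists, with medians of 53 nt in Btz-first and 46 nt in Y14-first against 53 and 48 nt. In each of the 4 classes of depth, X had a lower share than any large autosomal arm in both lists. In the highest class it was 20.1% on X against 24.1 to 28.5% in Btz-first, and 40.5% against 51.7 to 57.3% in Y14-first. The gap was not always that wide. In class 2 from the lowest of Btz-first, X had 16.2% (14.3 to 18.3) against 16.8 to 17.4%. The part of depth in the lower share of X was not tested.

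On the unplaced sequences U and Uextra, Btz-first peaks were matched more often than on any chromosome, most often on Uextra. Of the 245 Btz-first peaks on Uextra 79.6% (73.996 to 84.5) were matched, at a median depth of 9.55, and of the 62 on U 46.8% (33.98 to 59.9), at a median depth of 58.7. The Y14-first shares were 50.1% on Uextra and 43.9% on U, within the range of the chromosomes. Together, of their 307 Btz-first peaks 73.0% (67.6 to 77.9) were matched, and of their 453 Y14-first peaks 49.2% (44.5 to 53.9). They held 3.19% of the matched and 0.283% of the unmatched Btz-first peaks, against 3.10% and 2.59% of the Y14-first peaks. The eIF4AIII-first library overlapped 29.6% of these Btz-first and 19.6% of these Y14-first peaks. Pooled over both sequences, the peaks had median depths of 11.6 in Btz-first and 9.89 in Y14-first and median widths of 76 and 72 nt. Their 219 exclusive pairs had a median width difference of -1 nt and a rank correlation of depth of 0.60. On the arms and chromosome 4 the median differences were 8 to 12.5 nt and the correlations 0.10 to 0.24. Uextra is made up of unassembled scaffolds rich in repeats, and the sources used here do not give how reads with several possible places were treated. Without U and Uextra, 18.9% of the Btz-first peaks and 44.6% of the Y14-first peaks were matched.

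**Figure D5:**
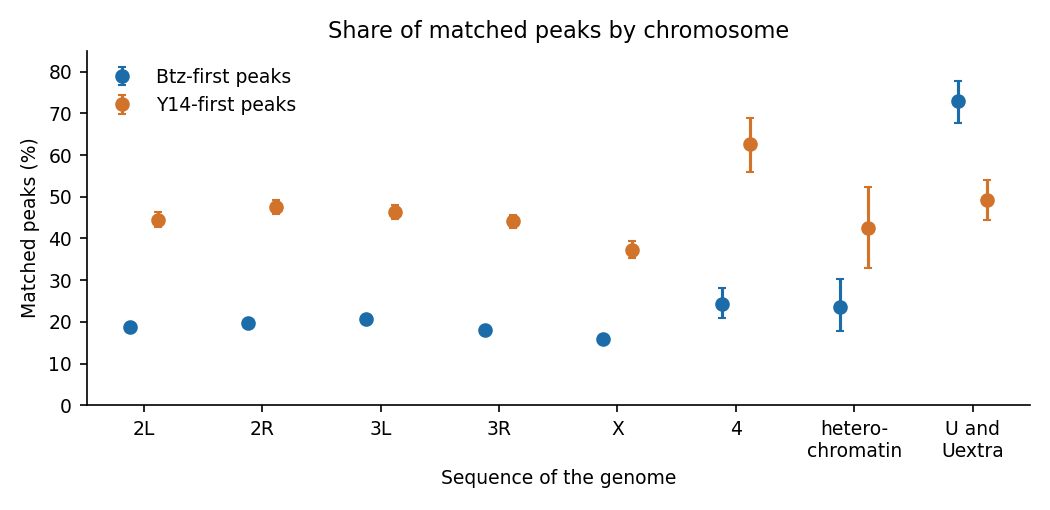
Percent of Btz-first peaks (blue) and Y14-first peaks (orange) matched in the other list (y) on each arm, on chromosome 4, in assembled heterochromatin and on the unplaced sequences (x), with exact 95% binomial intervals over peaks. X is lowest of the arms in both lists, chromosome 4 highest, and the unplaced sequences reach 73.0% of Btz-first peaks and 49.2% of Y14-first peaks.

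Matching was similar on both strands, while heterochromatin held too few peaks to place it. Matched were 18.8% of the Btz-first peaks of the plus strand and 19.8% of those of the minus strand, and 44.1% and 45.4% of the Y14-first peaks. In assembled heterochromatin 45 of 191 Btz-first peaks (23.6%, 17.7 to 30.2) and 45 of 106 Y14-first peaks (42.5%, 32.9 to 52.4) were matched. Both intervals contain the share of the whole list, but they are wide. That of Btz-first also contains the 24.4% of chromosome 4, and that of Y14-first the 37.3% of X. Differences as large as those between chromosomes could therefore not be seen here.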

How the data were processed

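For each library the authors deposited peaks with strand and a score, a signal value read here as mean depth, which is not scaled. Per the submitters' processing notes, tools included Bowtie and SAMtools, with no roles given, and the track names speak of clipping and merging, per the file headers. The sources used here give no peak caller, threshold or genome build. Samples were grouped by the label of the precipitation. From the lists, same-strand overlaps of at least 1 bp, end offsets, widths, depth ranks and counts of peak centres in windows of 10 kb were computed with Python 3.11.15, pandas 2.3.3, numpy 2.4.6 and SciPy 1.17.1. The functions were checked on simulated peaks, overlaps also against bedtools 2.31.1. Places named are the 5 windows of largest excess per list (ties by number of peaks, then position), the 5 deepest pairs with identical ends (by the lower of their 2 depth percentiles), the 3 most unequal pairs in each direction, and the 3 widest matched, most divided and deepest unmatched peaks per list. For the widest and most divided Y14-first peaks the first alone is described. Members, lists and rules were chosen with earlier results of these data known. Alternatives were an overlap of 50% of both peaks, equal list lengths, a minimum width of 15 nt, a constant of 1 and windows of 20 kb. Leaving out U and Uextra was added after seeing the data.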

Additional observations from a re-analysis of the deposited data

How the results depend on the processing

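Of 34 alternative values, 15 stayed and 19 moved. Staying meant within the interval of the main value, at the same 2 decimals (rank correlation) or within 1.5 times (windows). The width difference and the rank correlation alone could change direction, since shares and counts have no sign, and 0 of their values did. With an overlap of at least 50% of both peaks, 9.97% of the Btz-first and 22.5% of the Y14-first peaks were matched, 7.61% of exclusive pairs had both ends and 43.7% at least 1 end identical, the median width difference was 2 nt and the rank correlation of depth 0.32. With lists of equal length, the values were 23.3%, 24.8%, 2.27% (both ends), 18 nt and 0.13, and 126 and 74 windows were rich in Btz-first and Y14-first. With peaks of at least 15 nt, 43.7% of the Y14-first peaks were matched and 31.7% of pairs had an identical end. Without U and Uextra, 18.9% of the Btz-first peaks were matched and the correlation was 0.16. Windows rich in Btz-first numbered 52 with a constant of 1 and 114 with windows of 20 kb, from fewer windows. Apart from the construction of these settings, the cause was not tested. No paired analysis was possible because each purification had 1 library. Depth limits the lists themselves: a place below the unknown calling threshold is in no list, so an unmatched peak is not shown to be absent from the other purification.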

Other observations

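Depth was an exact whole number (tolerance 1e-09) more often in unmatched peaks, as when every read of a peak covers the same bases. This was so for 46.0% of the unmatched and 20.5% of the matched Btz-first peaks, and for 66.7% of the unmatched and 39.9% of the matched Y14-first peaks. At 50 to 74 nt the values were 48.2% and 28.0% in Btz-first, and 42.6% and 27.4% in Y14-first. PCR copies of 1 fragment cannot be told apart from separate fragments in these lists.

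A single width, 76 nt, was overrepresented in both lists. It was the width of 2331 Btz-first peaks, against 107 of 75 nt and 242 of 77 nt, and of 631 Y14-first peaks, against 48 and 64. The eIF4AIII-first list had 93 peaks of 76 nt and its own excess at 40 nt, with 3137 peaks against 271 of 39 nt and 449 of 41 nt. The sources used here give no read lengths. Peaks of exactly 76 nt were matched less often than their neighbours in width. Matched were 12.96% of the Btz-first peaks (11.6 to 14.4) and 41.7% of the Y14-first peaks (37.8 to 45.6) of 76 nt. At 74, 75, 77 and 78 nt together the shares were 28.0% (24.5 to 31.8) and 68.9% (61.9 to 75.4). Depth was a whole number in 47.6% of the Btz-first and 44.4% of the Y14-first peaks of 76 nt, against 1.99% and 2.59% at the neighbouring widths. In 37 exclusive pairs both peaks measured 76 nt, and 11 of these pairs had identical ends.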
